A study of Rattus norvegicus with 9 samples.

Results

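Splicing factors and neuronal RNA-binding proteins were followed in rat ventral midbrain and in cultures grown from it. The genes were those whose symbol starts with Hnrnp, Srsf, Sf3a, Sf3b, Snrp, Elavl, Celf, Ptbp, Rbfox, Nova, Khdrbs, Mbnl, Qk or Tra2, with the probe set of the highest mean taken for each gene. They came to 58 of the 10411 genes measured with probe sets of a single symbol. Of these, 41 belong to the general spliceosome and its common cofactors, 8 are RNA-binding proteins found mainly in neurons, and 9 are broadly expressed regulators of the same families. No gene of the Nova or Qk families was analysed here, nor were the neuronal Elavl2, Elavl3, Celf3 and Celf6.

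The cultures, MesPC (6 arrays), were dissociated ventral midbrain cells collected after 9 days in vitro, and the tissue, MesE11 (3 arrays), was ventral midbrain of embryonic day 11. The cultured cells were also taken at embryonic day 11. MesPC minus MesE11 thus joins dissociation, culture and 9 days of time, which cannot be told apart here. Per the labels, embryos of 4 pregnant rats were mixed into 3 groups, each of which gave a tissue pool and duplicate cultures, so no array stands for a single embryo. The label text speaks of 3 MesPC arrays while 6 are listed, and it does not say which cultures came from the same embryo group. The main fit took all arrays as independent, so neither duplicates nor a pairing of cultures with tissue entered it. By the labels' account the 6 culture arrays are not 6 independent samples. The p-values therefore measure only the spread between these arrays, and their precision is limited by how few arrays and embryo groups there are.

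The spliceosome removes introns from transcripts. Its snRNPs carry the Sm proteins encoded by Snrp genes, the SF3A and SF3B complexes belong to the U2 snRNP, and SR proteins and hnRNPs bind exons and introns and promote or repress the use of splice sites. Tissue-specific regulators are laid over this machinery. In neurons Rbfox, neuronal Elavl, Celf and Khdrbs proteins steer exon choice or the stability of transcripts, and during neuronal differentiation Ptbp2 takes the place of its paralog Ptbp1. The arrays report transcript levels at the 3′ end of genes and do not measure splicing itself.

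Values are log2 intensities, as deposited, and differences are given ± standard error. A member is said to have risen or fallen where limma's test gave a Benjamini-Hochberg adjusted p under 0.05 over all 15866 probe sets. The culture arrays formed 2 sets that the labels do not explain. Across probe sets Pearson's r was 0.997 to 0.998 within arrays 1 to 3 and within arrays 4 to 6 but 0.982 to 0.987 between the sets. Against tissue it was 0.943 to 0.953 for arrays 1 to 3 and 0.966 to 0.974 for arrays 4 to 6. In the labelled tissue 13 of 13 neuron and 6 of 6 dopaminergic markers lay above the highest bacterial control probe set (6.68) in mean. This floor is low, as only 1201 of 10411 genes had means below it in both groups. Of 8 microglial and 11 fibroblast markers, 0 and 1 lay below it in MesE11, so passing it does not identify the tissue. Erythroid markers were also present there, at a summed linear intensity of 643 to 859 in MesPC and 22818 to 27687 in MesE11.

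The general machinery stayed near its tissue level in culture, the neuronal members lay below it, and single broadly expressed regulators moved strongly either way. The median difference was 0.083 for the 41 general members, −0.915 for the 8 neuronal members and 0.068 for the 9 broadly expressed ones, beside −0.056 over all genes. In the general list 9 genes rose, 3 fell and 29 did not pass; its rises numbered 4 without MesE11 replicate 1 and 16 in the fit with 3 sets. In the neuronal list 4 fell and 4 did not pass (8 fell in the fit with 3 sets). That fit called 59.9% of all genes, 2816 higher and 3423 lower of 10411. In the broadly expressed list 3 rose, 1 fell and 5 did not pass. Over all members 12 of 58 rose and 8 fell, where 21.9% of all genes rose and 22.7% fell, together 20 of 58 beside 44.6% of all genes. The count of rises dropped to 6 without MesE11 replicate 1. Shares of all genes were not taken for fits without 1 array, so whether this drop is particular to the members was not tested. When the 2 culture sets and the tissue entered limma as random blocks, 7 members rose and 4 fell, where 13.2% and 9.11% of all genes did. By list these were 4 rises and 0 falls in the general, 3 falls in the neuronal, and 3 rises and 1 fall in the broadly expressed list. The random block used 1 correlation (0.447) for every gene, so it did not widen the error where the gap between sets was widest. For Celf4 the standard error was 0.42 with it and 0.44 without. Passing with the random block is therefore only a partial check on the sets. The values of the 6 culture arrays and the 3 tissue arrays did not overlap for 24 members, 13 of them above tissue and 11 below, where 44.4% of all genes did not overlap (21.1% above and 23.3% below). The plot of differences by family shows the members gene by gene.

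**Figure D1:**
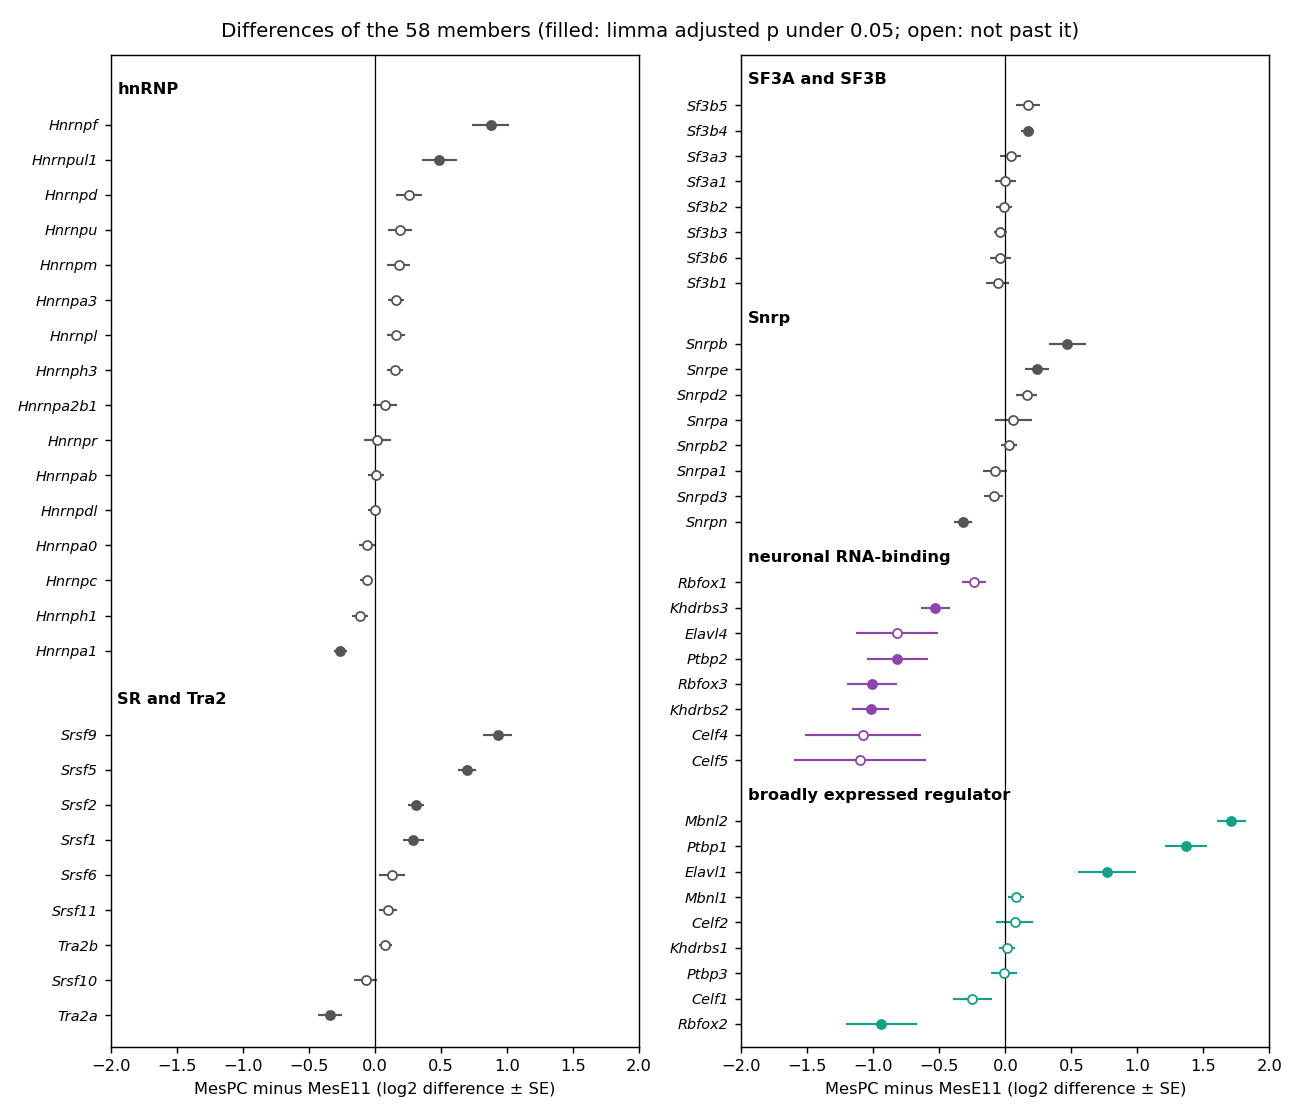
Log2 difference of MesPC minus MesE11 (x axis, ± standard error, 6 and 3 arrays) for each of the 58 members, grouped by family. Filled points passed limma's test and open ones did not. The SF3A and SF3B genes lie between −0.06 and 0.17, whereas the 8 neuronal members lie between −1.10 and −0.24.

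The polypyrimidine tract-binding proteins moved in opposite directions. Ptbp1, which represses neuronal exons in cells that are not neurons, read 11.89, 11.92 and 11.88 in MesPC arrays 1 to 3 and 11.37, 11.40 and 11.27 in arrays 4 to 6, against 10.21, 10.23 and 10.32 in MesE11. Every culture array lay above every tissue array, and the sets did not overlap. Ptbp1 rose by 1.37 ± 0.16, or 2.58-fold (adjusted p = 0.000124). Ptbp2, the paralog of young neurons, read 9.49, 9.54 and 9.30 in MesPC arrays 1 to 3 and 10.16, 10.04 and 10.28 in arrays 4 to 6, against 10.60, 10.35 and 10.92 in MesE11. The order of the 3 sets was the reverse of that of Ptbp1. Ptbp2 fell by 0.82 ± 0.23 on the log2 scale, 1.77-fold lower (adjusted p = 0.0163), but it did not pass with the random block (adjusted p = 0.0524) or without MesE11 replicate 3 (−0.67, adjusted p = 0.0845). Ptbp3, a further paralog found in blood-forming and other cells, differed by −0.01 ± 0.10 and did not pass.

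The promoters of this opposed pair and of the opposed Elavl genes described next are shown because a member of each pair rose while the other was lower. They come from RefSeq on the build GRCr8 and run 5′ to 3′ from 250 bases before to 50 after a listed start. The windows are chr7:10502908-10503207 for Ptbp1, chr2:210558228-210558527 for Ptbp2, chr12:7482576-7482875 for Elavl1 and chr5:130367614-130367913 for Elavl4, all on the minus strand. The listed starts of Ptbp1 and Elavl1 are the 5′ ends of the annotated genes, that of Ptbp2 lies 220 bases inside its gene and that of Elavl4 61443 bases inside. Capitals mark matches on either strand to 5 motifs. These were the CCAAT box, the ETS core CCGGAAG, the palindromic core of NRF1, and the left part TTCAGCACC and the right part GGACAGCG of the RE1 element bound by REST.
Ptbp1: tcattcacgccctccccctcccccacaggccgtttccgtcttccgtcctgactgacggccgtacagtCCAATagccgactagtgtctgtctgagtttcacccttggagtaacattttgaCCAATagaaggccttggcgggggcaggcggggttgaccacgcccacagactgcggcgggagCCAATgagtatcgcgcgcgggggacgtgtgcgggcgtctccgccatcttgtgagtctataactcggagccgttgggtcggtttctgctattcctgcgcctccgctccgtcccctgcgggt
Ptbp2: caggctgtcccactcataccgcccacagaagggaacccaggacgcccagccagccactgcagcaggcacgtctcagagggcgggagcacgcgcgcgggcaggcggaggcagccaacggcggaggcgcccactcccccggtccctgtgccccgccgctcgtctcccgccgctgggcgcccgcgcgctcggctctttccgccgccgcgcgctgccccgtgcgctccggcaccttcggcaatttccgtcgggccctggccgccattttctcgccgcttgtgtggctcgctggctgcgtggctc
Elavl1: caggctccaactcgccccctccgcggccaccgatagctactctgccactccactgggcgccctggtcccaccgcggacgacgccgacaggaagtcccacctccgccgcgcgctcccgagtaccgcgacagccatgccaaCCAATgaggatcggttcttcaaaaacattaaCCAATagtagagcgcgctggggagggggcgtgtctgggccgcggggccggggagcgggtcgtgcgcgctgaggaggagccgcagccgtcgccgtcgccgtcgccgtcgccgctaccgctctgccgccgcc
Elavl4: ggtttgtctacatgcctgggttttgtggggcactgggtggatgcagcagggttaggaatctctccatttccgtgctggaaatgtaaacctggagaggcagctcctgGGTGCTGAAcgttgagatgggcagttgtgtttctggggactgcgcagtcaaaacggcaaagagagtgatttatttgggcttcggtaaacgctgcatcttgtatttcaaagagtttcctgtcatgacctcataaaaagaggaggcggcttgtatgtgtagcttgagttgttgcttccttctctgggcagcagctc
Ptbp1 and Elavl1 held CCAAT, which 37.6% of the 8611 promoters of genes on the array hold. Elavl4 held TTCAGCACC on the other strand, found in 0.511% of those promoters, and Ptbp2 held none of the 5 motifs. CCAAT stood in 22 of 39 promoters of general members, 1 of 5 of neuronal and 3 of 6 of broadly expressed ones; 50 of the 58 members had a promoter in the table. CCGGAAG stood in 10 of the 39 general promoters, the NRF1 core in 1 and the RE1 parts in 0, against 15.5%, 1.72%, 0.511% and 2.04% of array promoters. These matches are descriptions of the sequence and not binding sites.

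Of the Elavl genes analysed, the ubiquitous Elavl1 rose and the neuronal Elavl4 was lower. Elavl1, or HuR, which stabilises AU-rich transcripts in most cells, read 11.21, 11.34 and 11.25 in MesPC arrays 1 to 3 and 10.50, 10.63 and 10.42 in arrays 4 to 6, against 10.11, 10.30 and 9.97 in MesE11. All 6 culture arrays were above the tissue, and arrays 1 to 3 were highest. It rose by 0.77 ± 0.22 (adjusted p = 0.0195), and by 0.76 without MesE11 replicate 1 and 0.69 without replicate 3, where it no longer passed (adjusted p = 0.0614 and 0.0845). Elavl4, or HuD, which does this in neurons, read 10.07, 9.90 and 10.06 in MesPC arrays 1 to 3 and 11.17, 11.09 and 11.12 in arrays 4 to 6, against 11.42, 11.36 and 11.38 in MesE11. The 6 culture arrays lay below the 3 tissue arrays without overlap, and the gap between the culture sets was larger than that between arrays 4 to 6 and tissue. The difference of −0.82 ± 0.31 did not pass (adjusted p = 0.0573), since the fit with all arrays counts the gap between the sets as spread. It did pass under quantile normalization, with median centring and without MesPC replicate 4, 5 or 6 (adjusted p = 0.0344 to 0.0411). With arrays 1 to 3 alone Elavl4 fell by 1.38 (adjusted p = 1.86e-07) and with arrays 4 to 6 alone by 0.26 (adjusted p = 0.00733). In bulk RNA of this kind, fewer neurons and less of a transcript per neuron cannot be told apart.

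The neuronal Celf genes analysed had the widest gap between the culture sets. Celf4, a regulator of neuronal mRNA that acts in excitatory neurons, read 10.07, 9.82 and 10.06 in MesPC arrays 1 to 3 and 11.52, 11.62 and 11.52 in arrays 4 to 6, against 11.84, 11.73 and 11.99 in MesE11. Celf5, its close relative in brain, read 9.80, 9.65 and 9.97 in arrays 1 to 3 and 11.59, 11.72 and 11.49 in arrays 4 to 6, against 11.84, 11.72 and 11.85. For Celf4 no culture array reached the tissue, while for Celf5 the highest of arrays 4 to 6 and the lowest tissue value both rounded to 11.72. Differences over all 6 arrays were −1.08 ± 0.44 for Celf4 and −1.10 ± 0.50 for Celf5, and neither passed (adjusted p = 0.0697 and 0.0988), though Celf4 did without MesPC replicate 4, 5 or 6 (adjusted p = 0.0407 to 0.0484). Against tissue, arrays 1 to 3 alone gave −1.87 and −2.0, and arrays 4 to 6 alone −0.30 and −0.20; of these 4 values only the last did not pass (adjusted p = 0.0506). The broadly expressed Celf1, which also controls decay and translation of mRNA, differed by −0.25 ± 0.15 on its brightest probe set (adjusted p = 0.193) and fell by 0.55 ± 0.10 on the other (adjusted p = 0.00155). Celf2, present in brain, heart and lymphocytes, differed by 0.07 ± 0.14 and did not pass, but it was at −0.18 with arrays 1 to 3 alone and 0.31 with arrays 4 to 6 alone, past the threshold each time (adjusted p = 0.0318 and 0.00327).

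**Figure D2:**
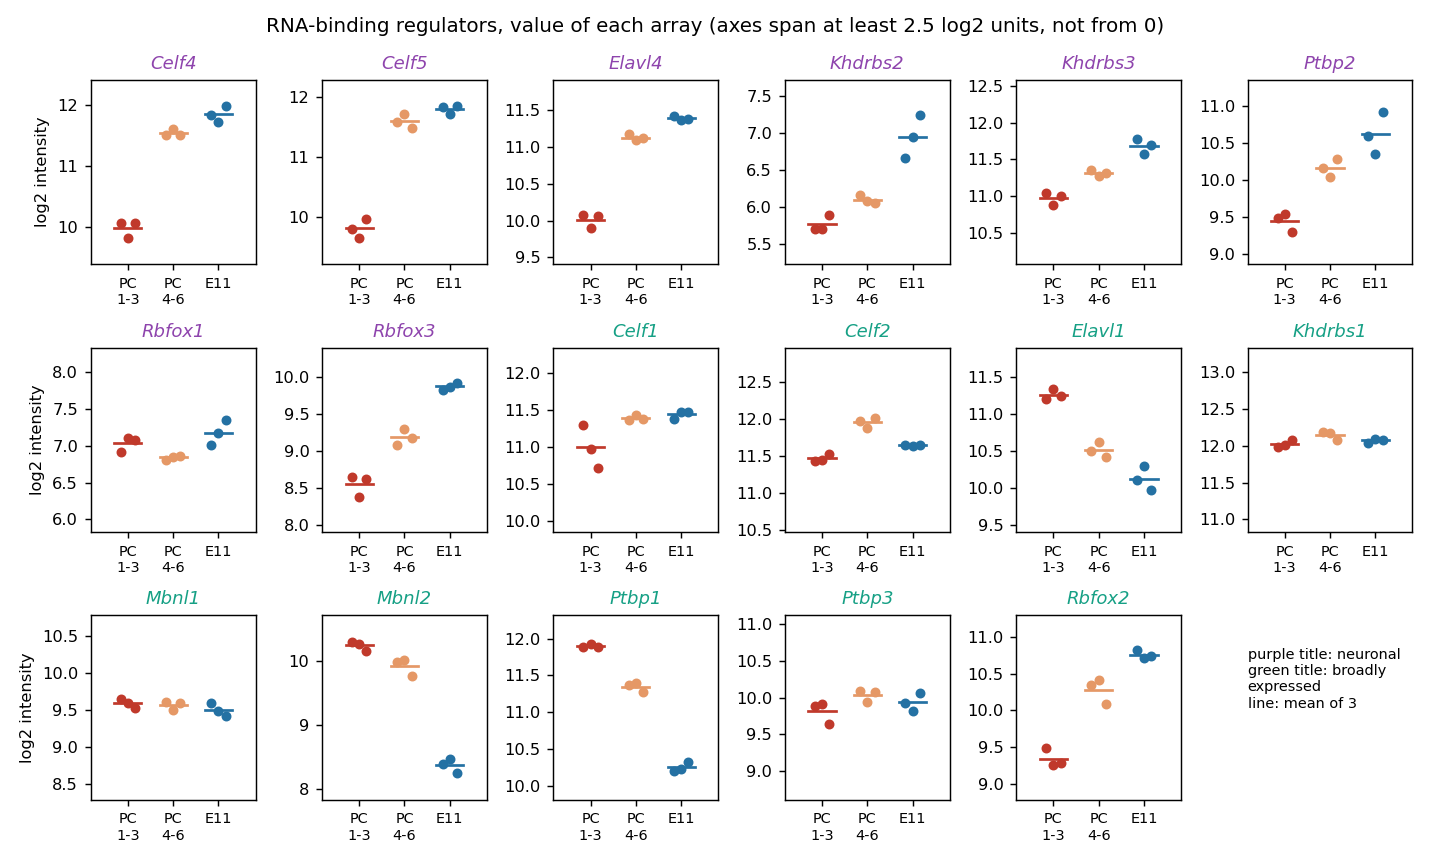
Log2 intensity (y axis, not from 0) of the 8 neuronal members (purple titles) and 9 broadly expressed regulators (green titles) in each MesPC array, split into arrays 1 to 3 and 4 to 6, and in each MesE11 array, with the mean of each 3. Ptbp1 at 11.27 or more in culture stands above 10.32 or less in tissue, and Rbfox3 at 9.29 or less in culture stands below 9.83 or more.

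Among the Rbfox genes, which bind GCAUG in introns, Rbfox3 and Rbfox2 fell. Rbfox3, the NeuN antigen of mature neurons, read 8.64, 8.38 and 8.62 in MesPC arrays 1 to 3 and 9.08, 9.29 and 9.18 in arrays 4 to 6, against 9.83, 9.87 and 9.92 in MesE11. Each set lay apart from the others, with tissue highest. Rbfox3 fell by 1.01 ± 0.19 (adjusted p = 0.00227), also with the random block (adjusted p = 0.00564). Its dimmer probe set differed by −0.22 ± 0.18 and did not pass. That probe set was the brighter one in MesPC (mean 9.05 against 8.86) and dimmer only in MesE11 (9.26 against 9.87). The choice of probe set by brightness thus rested on the tissue values and favours a fall. Rbfox2, present in neurons, muscle and mesenchymal cells, read 9.49, 9.26 and 9.29 in MesPC arrays 1 to 3 and 10.35, 10.41 and 10.09 in arrays 4 to 6, against 10.82, 10.71 and 10.74 in MesE11. It was the only broadly expressed regulator to fall, by 0.94 ± 0.27 (adjusted p = 0.0195), and it lost this call without any 1 tissue array (−0.96 to −0.91, adjusted p = 0.0523 to 0.0663). Rbfox1, of neurons and muscle, read 6.81 to 7.10 in MesPC, with a median of 6.88, against 7.01, 7.17 and 7.35 in MesE11, and the groups overlapped. All these values lay not far above the highest bacterial control value (6.68), and a filter on dim probe sets removed this gene. Its difference of −0.24 ± 0.09 did not pass (adjusted p = 0.0598), but it did without MesE11 replicate 1 or MesPC replicate 2 or 3 and with either centring (adjusted p = 0.0259 to 0.0467).

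The neuronal Khdrbs genes fell while their ubiquitous relative did not pass. Khdrbs3, or T-STAR, read 11.04, 10.88 and 11.01 in MesPC arrays 1 to 3 and 11.36, 11.27 and 11.32 in arrays 4 to 6, against 11.78, 11.57 and 11.69 in MesE11. It fell by 0.53 ± 0.11 (adjusted p = 0.00424). Khdrbs2, or SLM1, known for the control of neurexin exons in mouse brain, read 5.70, 5.70 and 5.89 in arrays 1 to 3 and 6.16, 6.08 and 6.06 in arrays 4 to 6, against 6.66, 6.95 and 7.25 in MesE11. It fell by 1.02 ± 0.14 (adjusted p = 0.000419), and all its culture values and the lowest tissue value lay within the 4.80 to 6.68 spanned by 27 bacterial control probe sets. Both falls held with the random block (adjusted p = 0.0209 and 0.00588). Khdrbs1, or Sam68, differed by 0.01 ± 0.06, with a dimmer probe set that fell by 0.25 ± 0.08 (adjusted p = 0.0275).

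The largest difference of any member was that of a muscleblind gene. Mbnl2, one of the proteins sequestered in myotonic dystrophy and the main muscleblind of brain, read 10.30, 10.27 and 10.16 in MesPC arrays 1 to 3 and 9.98, 10.02 and 9.77 in arrays 4 to 6, against 8.39, 8.48 and 8.25 in MesE11. Each culture array was more than 1 log2 unit above every tissue array. It rose by 1.71 ± 0.11, or 3.27-fold (adjusted p = 3.18e-06), with further probe sets at 0.70 ± 0.10, which passed, and 0.26 ± 0.12, which did not. Mbnl1, its more widely expressed paralog, read 9.50 to 9.65 in MesPC, with a median of 9.59, against 9.59, 9.48 and 9.41 in MesE11, and differed by 0.08 ± 0.06 without passing.

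Of the 16 hnRNP genes, whose products coat nascent transcripts, 2 rose, 1 fell and 13 did not pass (18.8% called, beside 44.6% of all genes). Hnrnpf, which binds G-rich elements, read 11.41, 11.37 and 11.41 in MesPC arrays 1 to 3 and 10.98, 10.97 and 10.92 in arrays 4 to 6, against 10.38, 10.45 and 10.05 in MesE11, and rose by 0.88 ± 0.14 (adjusted p = 0.00105). Hnrnpul1 rose by 0.49 ± 0.13 (adjusted p = 0.0135) but did not pass with the random block (adjusted p = 0.145) or without MesE11 replicate 1 (adjusted p = 0.0599). Hnrnpa1, a repressor of splice sites, had 12.19 to 12.32 in MesPC, median 12.23, against 12.47, 12.53 and 12.52 in MesE11, and fell by 0.26 ± 0.05 (adjusted p = 0.00245). Its groups did not overlap, yet the call ended with the random block (adjusted p = 0.0593) and when its 3 probe sets were averaged (−0.19, adjusted p = 0.0565). Hnrnpa0 was the brightest general member, at 13.03 ± 0.07 in MesPC and 13.09 ± 0.04 in MesE11 (SD, n = 6 and 3), and did not pass.

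The SR proteins and Tra2 cofactors, which bind exonic enhancers, held the largest rise of the general list. Of 9 genes 4 rose, 1 fell and 4 did not pass (55.6% called, beside 44.6% of all genes). Srsf9 read 10.93, 10.91 and 10.86 in MesPC arrays 1 to 3 and 10.64, 10.62 and 10.53 in arrays 4 to 6, against 9.91, 9.96 and 9.60 in MesE11. It rose by 0.93 ± 0.11, or 1.90-fold (adjusted p = 0.000166). Srsf5 read 12.15, 12.16 and 12.05 in arrays 1 to 3 and 12.01, 12.0 and 12.03 in arrays 4 to 6, against 11.38, 11.50 and 11.23, and rose by 0.70 ± 0.07 (adjusted p = 4.57e-05). These genes kept their calls with the random block (adjusted p = 0.0018 and 0.00166), and the culture sets lay much nearer to each other than to tissue. Srsf2, or SC35, rose by 0.31 ± 0.06 (adjusted p = 0.00327; 0.0436 with the random block), and Srsf1 by 0.29 ± 0.08 (adjusted p = 0.0177; 0.184 with the random block). A dimmer probe set of Srsf1 fell by 0.18 ± 0.06 (adjusted p = 0.0373), so the direction of this gene depends on the probe set. Tra2a read 10.33 to 10.72 in MesPC, median 10.52, against 10.82, 10.87 and 10.82 in MesE11, and fell by 0.34 ± 0.09 (adjusted p = 0.011; 0.133 with the random block). Srsf10 was the dimmest general member (7.19 ± 0.13 in MesPC and 7.26 ± 0.11 in MesE11, SD) and did not pass.

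Most core snRNP genes lay near their tissue level. Of the 8 SF3A and SF3B genes, whose products recognise the branch point, Sf3b4 rose by 0.17 ± 0.05 (adjusted p = 0.0284; 0.217 with the random block) and the other 7 did not pass, with differences of −0.06 to 0.17. A dimmer probe set of Sf3b1, the branch-point binding subunit, rose by 0.69 ± 0.09 (adjusted p = 0.000232) where the brighter one differed by −0.06 ± 0.09. In MesPC both were alike (mean 11.51 and 11.48), and the first was dimmer only in MesE11 (10.82 against 11.54). The choice by brightness thus rested on the tissue values. Of 8 Snrp genes 2 rose and 1 fell (37.5% called, beside 12.5% of the SF3A and SF3B genes and 44.6% of all genes). Snrpb, which encodes the Sm proteins B and B′, read 11.84, 11.82 and 11.81 in MesPC arrays 1 to 3 and 11.40, 11.37 and 11.32 in arrays 4 to 6, against 11.02, 11.26 and 11.08 in MesE11. It rose by 0.47 ± 0.14 (adjusted p = 0.0216) and lost the call under quantile normalization, with the random block and without MesE11 replicate 1 or 3 (adjusted p = 0.0512 to 0.0844). Snrpe rose by 0.24 ± 0.09 at the edge of the threshold (adjusted p = 0.0492; 0.22 with the random block). Snrpn, the imprinted Sm gene that replaces Snrpb in neurons, read 7.54, 7.61 and 7.5 in arrays 1 to 3 and 7.5, 7.64 and 7.69 in arrays 4 to 6, against 7.84, 7.83 and 8.03. All 6 culture values were below the tissue, and Snrpn fell by 0.32 ± 0.07 (adjusted p = 0.00463; 0.0821 with the random block). Its symbol placed it in the general list, where it is 1 of the 3 falls.

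The probe sets of a splicing gene often lay on different sides of the threshold, though seldom with opposite calls. Of 20 members with several probe sets, 1 had them all called in 1 direction, 11 had some called and some not, 7 had none called and 1, Srsf1, had opposite calls. Among the 1868 genes of the array with several probe sets these shares were 21.1%, 39.9%, 36.6% and 2.41%. Besides Sf3b1, dimmer probe sets rose for Srsf6 (0.64 ± 0.06), Hnrnpa2b1 (0.69 ± 0.09), Hnrnpa3 (0.46 ± 0.13), Hnrnpdl (0.42 ± 0.07) and Celf2 (0.30 ± 0.10). The brightest ones of these genes differed by 0.13 ± 0.10, 0.08 ± 0.09, 0.16 ± 0.06, 0.00 ± 0.05 and 0.07 ± 0.14 and did not pass. For Hnrnpdl the dimmer probe set was the brighter one in MesPC (mean 11.71 against 11.63) and dimmer only in MesE11 (11.29 against 11.63). Sf3b1, Srsf6, Hnrnpa2b1, Hnrnpa3 and Hnrnpdl are named here with their values already known.

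Between the culture sets, the neuronal members differed most and the general members little. The sets stood apart in these same data, so this comparison describes them and is no independent test of a condition. For MesPC arrays 1 to 3 minus arrays 4 to 6 the median difference was 0.058 over general, −0.675 over neuronal and −0.121 over broadly expressed members, beside 0.033 over all genes. Of the 8 neuronal members 0 were called higher and 7 lower in arrays 1 to 3, of the 41 general ones 6 higher and 0 lower, and of the 9 broadly expressed ones 3 higher and 3 lower, where 15.2% of all genes were called higher and 17.5% lower (32.7% in all). Centring on ribosomal protein probe sets moved the median of all genes by −0.127. With it the general median turned to −0.07 with 3 higher and 5 lower, the neuronal calls stayed at 7 lower, and the members as a whole were called higher in 5 and lower in 17 cases, against 9 and 10 as deposited; quantile normalization gave 13 and 10. The direction of the general list between the sets therefore depends on the scaling. Shares of all genes called under these other scalings were not taken.

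Celf5 and Celf4 had the widest gaps, −1.79 ± 0.09 and −1.57 ± 0.08, or 3.47-fold and 2.97-fold lower in arrays 1 to 3 than in arrays 4 to 6. Next were Elavl4 (−1.12 ± 0.06), Rbfox2 (−0.94 ± 0.09), Ptbp2 (−0.71 ± 0.12) and Rbfox3 (−0.64 ± 0.08). Celf2 (−0.49 ± 0.06), Celf1 (−0.40 ± 0.11) and Khdrbs3 (−0.34 ± 0.07) were also lower in arrays 1 to 3, Celf1 not without MesPC replicate 3 or 5 (adjusted p = 0.0591 and 0.0516). Khdrbs2 is among the 7 neuronal members called lower, but its culture values were no brighter than bacterial control probe sets can be, and its call was lost without MesE11 replicate 2 or any 1 of MesPC replicates 1, 2, 4, 5 and 6, so no size is read from it. Rbfox1, with values not far above the bacterial controls, was the neuronal member with the opposite sign (0.19 ± 0.08), and its sets did not overlap. It did not pass (adjusted p = 0.0971) but did in a fit of the 6 culture arrays alone (adjusted p = 0.0426). Elavl1 (0.75 ± 0.09), Ptbp1 (0.55 ± 0.06) and Mbnl2 (0.32 ± 0.08) were higher in arrays 1 to 3, though Mbnl2 did not pass with ribosomal centring (0.19). In the general list Snrpb, Hnrnpf and Snrpa, which encodes a protein of the U1 snRNP, were 0.46 ± 0.07, 0.44 ± 0.09 and 0.43 ± 0.08 higher. The lowest of those whose sets did not overlap, Hnrnpr (−0.18 ± 0.09), Srsf2 (−0.13 ± 0.06) and Hnrnpa0 (−0.11 ± 0.06), did not pass, though with ribosomal centring they were at −0.31, −0.26 and −0.23 and did. Sets of 3 arrays did not overlap for 17 of 41 general, 8 of 8 neuronal and 7 of 9 broadly expressed members, where 48.4% of all genes did not overlap. Of those, arrays 1 to 3 lay above in 13, 1 and 3 members and below in 4, 7 and 4, where 26.0% of all genes lay above and 22.4% below.

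**Figure D3:**
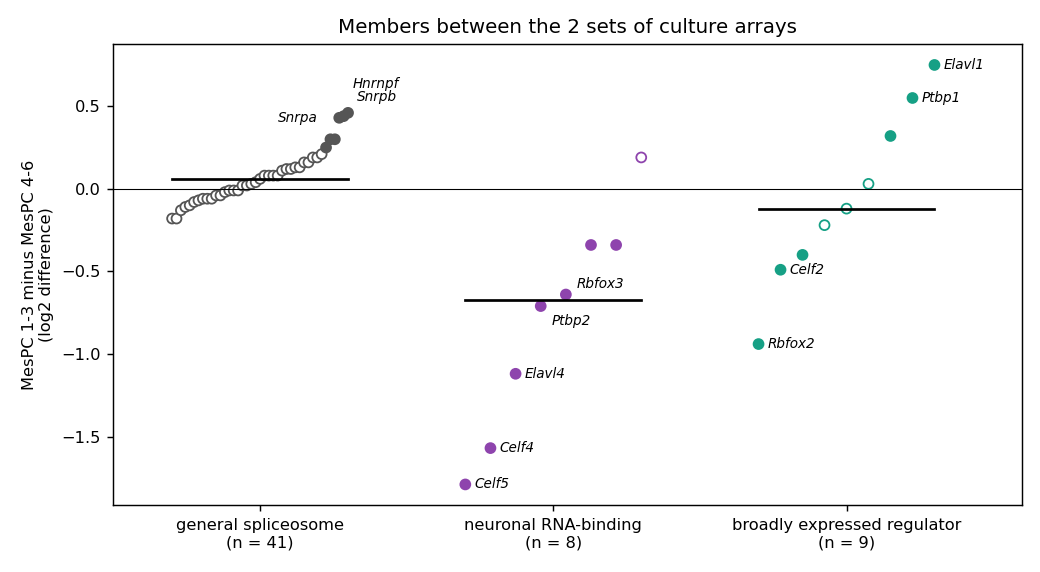
Log2 difference of MesPC arrays 1 to 3 minus arrays 4 to 6 (y axis) for each member, in order of size within its list (x axis), with the median of the list as a line. Filled points passed limma's test. General members lie between −0.18 and 0.46, and neuronal members reach −1.79.

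Within each culture set the neuronal members were lower than tissue. Against MesE11, 7 of 8 were called lower with arrays 1 to 3 alone (27.0% of all genes) and 7 of 8 with arrays 4 to 6 alone (27.2%), with 0 higher in each, and the medians of the neuronal list were −1.258 and −0.35. Both comparisons use the same tissue arrays. Of the 41 general members 17 were called higher and 3 lower with arrays 1 to 3 alone, and 7 higher and 3 lower with arrays 4 to 6 alone. Of all genes 25.7% were called higher with arrays 1 to 3 alone and 22.9% with arrays 4 to 6 alone, and 52.7% and 50.1% were called in either direction.

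Marker lists moved beside these values, where 21.9% of all genes rose and 22.7% fell (13.2% and 9.11% with the random block). Of the 13 neuron markers measured 7 fell and 0 rose, and 4 fell with the random block. Their summed linear intensity was 34862 to 40050 in MesPC arrays 1 to 3 and 76028 to 77414 in arrays 4 to 6, against 91397 to 101070 in MesE11. The median deviation from the tissue mean ran from −1.373 to −1.244 for the neuronal members and from −1.537 to −1.254 for the neuron markers in arrays 1 to 3, and from −0.367 to −0.337 and from −0.26 to −0.221 in arrays 4 to 6. Fibroblast markers rose in 10 of 11 cases, with sums of 29336 to 32671 in arrays 1 to 3, 28746 to 31011 in arrays 4 to 6 and 3163 to 3598 in tissue. Cell cycle markers rose in 12 of 13, with sums of 19243 to 20648, 13147 to 14823 and 7880 to 8645 in the same order. Between the culture sets 12 of these markers were called higher in arrays 1 to 3 and 1, Aurkb, lower (−0.64 ± 0.12). Astrocyte and radial glia markers rose in 6 of 10 (sums in that order 31558 to 33464, 25352 to 27355 and 17189 to 21719). Oligodendrocyte lineage markers rose in 1 of 7 (Pdgfra) and fell in 1, with sums of 8214 to 10151, 3454 to 4214 and 3523 to 3748. The higher sum in arrays 1 to 3 rests largely on Olig1, at a mean of 12.46 there, 10.01 in arrays 4 to 6 and 10.44 in tissue. Its gap between the culture sets was 2.45, and those of the other markers in this list were 0.16 to 0.50. Dopaminergic neuron markers fell in 6 of 6, erythroid markers in 5 of 5, endothelial in 4 of 5 and microglial in 5 of 8, with 0 higher in each. The part of these cell types in the values of the RNA-binding genes was not tested.

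**Figure D4:**
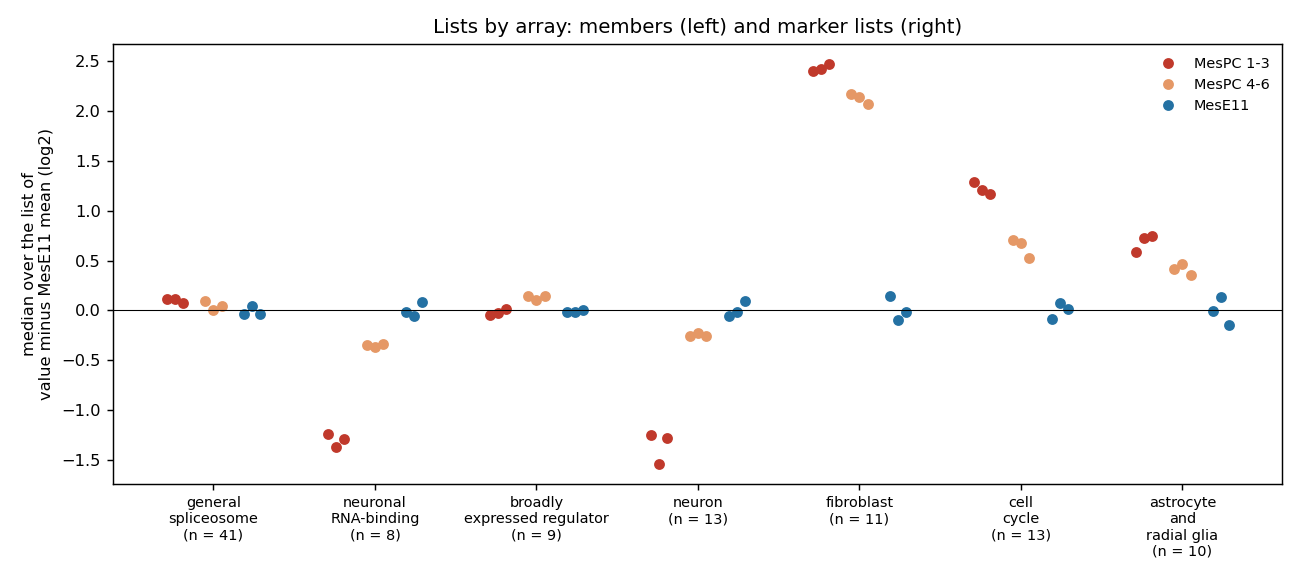
Median over each list of the log2 value minus the gene's MesE11 mean (y axis) in each array, for the 3 lists of members and 4 marker lists (x axis). The general members lie between −0.039 and 0.114 over all 9 arrays, whereas the neuronal members lie between −1.373 and −1.244 in MesPC arrays 1 to 3 and between −0.367 and −0.337 in arrays 4 to 6.

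The rest of the splicing pathway held rises and falls of moderate size. Of 56 measured spliceosome genes outside the families above, 11 rose and 8 fell (33.9% called, beside 44.6% of all genes), with a median of 0.064 and a range of −0.48 to 0.47. With the random block 2 rose and 1 fell (5.36% called, beside 22.4% of all genes). Ddx46, a helicase of the U2 snRNP, rose by 0.47 ± 0.08, Ddx39b, a helicase of splicing and mRNA export, by 0.40 ± 0.07 and Eif4a3, of the exon junction complex, by 0.39 ± 0.09. Ncbp1, the large subunit of the nuclear cap-binding complex, fell by 0.48 ± 0.08, Lsm8, of the U6 snRNP, by 0.37 ± 0.07 and Prpf38a, of the tri-snRNP, by 0.31 ± 0.09. Eif4a3, Lsm8 and Prpf38a did not pass with the random block (adjusted p = 0.108, 0.0584 and 0.167).

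Of 7 kinases of splicing factors 1 rose and 2 fell (42.9% called, beside 44.6% of all genes). Clk2, which phosphorylates SR proteins in the nucleus, rose by 0.52 ± 0.09 (adjusted p = 0.0015). Srpk1, which does so in the cytoplasm, fell by 0.51 ± 0.11 (adjusted p = 0.00425), and Prpf4b by 0.22 ± 0.06 (adjusted p = 0.019); with the random block the adjusted p of these falls was 0.0617 and 0.191. Of 27 other RNA-binding regulators 8 rose and 2 fell (37.0% called, beside 44.6% of all genes), and with the random block 1 rose and 1 fell. Rbm24, known as a splicing regulator of heart and skeletal muscle, read 10.41 to 10.58 in MesPC against 8.85 to 9.21 in MesE11 and rose by 1.41 ± 0.08 (adjusted p = 1.46e-06). Msi2, of the musashi family found in progenitors, and Pcbp2, which binds C-rich RNA, rose by 0.39 ± 0.09 and 0.37 ± 0.08 but not with the random block (adjusted p = 0.101 and 0.0966). Cpeb3, a translational regulator at synapses, fell by 0.88 ± 0.23 (adjusted p = 0.0143), and Matr3, a nuclear matrix protein, by 0.34 ± 0.10 (adjusted p = 0.0189; 0.0699 with the random block).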

How the data were processed

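Total RNA from 6 MesPC and 3 MesE11 samples was extracted with Tri-Reagent and hybridised as biotinylated target, per the labels' protocols. The deposited log2 intensities were made by the authors with RMA, per the submitters' processing notes, of a version not given in the sources used here. The method fits the arrays to nearly 1 distribution, so differences are relative to other probe sets. Of 15923 probe sets, 57 controls were left out and 15866 tested with lmFit and eBayes of limma 3.58.1 (R 4.3.3), using Benjamini-Hochberg adjustment and a threshold of 0.05. The array annotation gave 12783 probe sets 1 symbol, 312 several (not named), and 2771 were not listed.

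The members, lists, comparisons and naming rule were chosen with earlier results of these data known. Named were every measured neuronal and broadly expressed member; of the general list the 6 largest rises and falls past the threshold without overlap between groups, the 3 largest gaps each way between culture sets without overlap, the brightest, the dimmest and Snrpn; and of each further list up to 3 calls each way. Sf3b2, Sf3a1, Sf3b5, Sf3b4, Snrpe, Srsf1, Srsf6, Sf3b1, Hnrnpa2b1, Hnrnpa3 and Hnrnpdl were added after their values were seen. Alternatives were quantile normalization, centring, a filter on dim probe sets, probe set means, blocks for sets and replicate number, either culture set alone, a fit with 3 sets and leaving out each array. The fits were tested on simulated data. Plots used matplotlib 3.10.9.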

Additional observations from a re-analysis of the deposited data

Results flagged for a closer look

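Among the 6 culture arrays, a single array lay apart from the others for 4 of the 58 members, by the gap to its nearest neighbour relative to the range of the 6 values. Chance gives such a gap in about 1 of 20 groups, so 4 of 58 is near what chance gives. The share over all genes was not taken. Hnrnpa2b1 read 12.25 in MesPC replicate 2, above the other 5 arrays (11.90 to 12.01). Sf3a1 read 9.66 in MesPC replicate 3 (others 9.47 to 9.51), and Sf3b2 read 11.78 in MesPC replicate 4 (others 11.72). Sf3b5 read 11.04 in MesPC replicate 6, the lowest of its 6 values (others 11.24 to 11.33). None of these 4 genes was called between MesPC and MesE11 on its brightest probe set, where limma's adjusted p was 0.131 to 0.972.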

How the results depend on the processing

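Members called higher in MesPC numbered 12, and 19 in a fit with 3 sets, 20 with arrays 1 to 3 alone, 7 with the random block (consensus correlation 0.447), and 6 to 13 when 1 array was left out, 6 being without MesE11 replicate 1. Members called lower numbered 8, and 13 with 3 sets or with arrays 1 to 3 alone, 4 with the random block and 6 to 10 without 1 array. Of all genes 44.6% were called, and 59.9% with 3 sets, 52.7% with arrays 1 to 3 alone and 22.4% with the random block. This share was not taken for the replicate block, the rescaled values or the fits without 1 array. Shifts in those counts of members are therefore not set against all genes. No label links a culture array to a tissue pool. Deviations of arrays that share a number (1 to 3) correlated at 0.0836, −0.119 and −0.111, so these numbers were not taken as pairs; those of tissue 1, 2 and 3 with culture 4, 5 and 6 correlated at 0.24, 0.134 and 0.363, a hint from the data that was not fitted. With the replicate block, which uses arrays 1 to 3 of both groups, 19 were called higher and 12 lower, with medians of 0.096 (general), −1.258 (neuronal) and −0.048 (broadly expressed). The general median moved by more than the spread of the culture arrays only with quantile normalization (0.037). The neuronal median did so only with arrays 4 to 6 alone (−0.35). The broadly expressed median did so with the replicate block and with arrays 1 to 3 alone (−0.048 in both). Without 1 array the medians ran from 0.055 to 0.1, from −0.994 to −0.83 and from 0.013 to 0.093. Between the culture sets 9 were higher and 10 lower, 5 and 17 with ribosomal centring, and 8 to 12 and 8 to 10 without 1 array. Celf2 turned to −0.18 with arrays 1 to 3 alone. Of 30 named members, 15 kept their side of the threshold under every alternative for MesPC minus MesE11, and 19 between the sets. The filter on the dimmest 40% of probe sets removed 4 members, Khdrbs2, Rbfox1, Snrpn and Srsf10. Causes of lost calls were not tested.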
